A study of Mus musculus with 4 samples.

Results

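The collagen gene family was examined in forelimbs of mouse embryos, in wild type and in embryos labelled as Shox2 knockout. Shox2 is a homeodomain transcription factor on which growth of the upper limb skeleton depends. Its members were all named probe sets whose gene symbol consists of Col, a number, a and a number, which gave 44 genes among 25206 probe sets, each gene with 1 probe set. All embryos were C57BL/6 mice of stage E11.5, when the limb bud is patterned and its first cartilage condenses. Each of 4 arrays measured RNA pooled from forelimbs of 3-4 embryos of the same genotype. The genotypes were wild type (WT in the labels) and SHOX2-KO, with 2 arrays each, numbered 48 and 50 in their titles. The pregnancies that supplied the embryos were different, but the labels do not say which array came from which. The sources used here do not say how the allele was made. The 44 genes were grouped into 11 fibrillar collagens, 9 network collagens, 9 FACIT collagens (fibril-associated collagens with interrupted helices) and 15 others.

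Collagens are secreted as chains with long glycine-rich repeats that wind into a helix. The fibrillar chains build the tensile fibrils of connective tissue and cartilage, FACIT chains sit on the surface of these fibrils, and network chains form sheets such as the basement membrane under ectoderm and around vessels. In a limb bud, loose mesenchyme makes types I and III, and cells that condense into cartilage switch on types II, IX and XI; type X marks the later, hypertrophic stage. Many collagen molecules mix products of several genes, so the chains of an assembly can be set against each other.

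Collagen genes stood apart between the genotypes about as often as genes over all, or less often. Of the 44 members, 36 had a mean log2 level at or above 5.60, the level at percentile 40 of all probe sets, and were tested with limma, an across-gene linear model; the other 8 were too dim. At an adjusted p under 0.05 limma called 0 of the 36, against 0.0213% of all 14095 genes tested. With 2 arrays per genotype so few genes of any kind passed that this count is no evidence of equal levels. At an unadjusted p under 0.05 there were 2 of 36, or 5.56%, against 10.2% of all genes. Both were FACIT genes with higher values in the knockout, Col9a2 and Col12a1. In that direction 5.19% of all genes had such a p, and 5% in the other, where there were 0 members. The median log2 difference, knockout minus wild type, was -0.0065 over the 36 members and -0.00098 over all genes tested. The members' differences ran from -0.36 to 0.39, and 2 members differed by 1.2-fold or more. The genotypes did not overlap in 14 members, 7 of them higher and 7 lower in the knockout. That is 38.9%, near the 42% found over all genes, of which 22.1% were higher and 19.9% lower. Both shares of members lie near or below that of all genes.

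The arrays themselves were alike. Log2 values ran from 5.04 to 14.1 on arrays of near identical distribution, and Pearson's r between arrays across probe sets was 0.995 to 0.997, which only describes the arrays because probe sets are not independent replicates. Shox2 read 10.57 and 10.37 in the wild type and 9.58 and 8.88 in the knockout, a log2 difference of -1.24 ± 0.21 (SE, n = 2 arrays per genotype; limma, adjusted p = 0.322). In the knockout Shox2 thus still read well above the lowest value of 5.04. The sources used here do not say which part of Shox2 the probe set reads. The 3 genes called over all were the Y-linked Eif2s3y, Uty and Kdm5d, higher in the knockout by 3.48 to 4.29 (log2), and Xist differed by -1.01 (limma, adjusted p = 0.217). The pools thus differed in sex-linked transcripts as well as in genotype. The forelimb label fits the markers, with log2 levels of 12.4 and 12.3 for the forelimb gene Tbx5 and 12.7 and 12.7 for the mesenchymal gene Prrx1 in the wild type.

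Start regions are shown here first for chains of types IX, I, III and IV that are described below. Windows of Col12a1, Col14a1, Col2a1, Col1a1 and Col9a3 were not analysed here, so types I and IX are shown in part. The windows come from RefSeq on GRCm38.p6 and run from 250 bases before to 50 bases after an annotated start site, 5′ to 3′ on the gene's strand. Of the 44 genes, 35 matched a window by Entrez Gene identifier, with 38 windows in all. Capitals mark matches, on either strand, to any of 7 motifs that were searched. These 7 were the TATA box (TATAAA), the CCAAT box (CCAAT), the GC box (GGGCGG), a pair of SOX-type sites (ACAATG and ACAAAG), a homeodomain core (TAATTA) and paired homeodomain sites (TAAT facing ATTA across 3 bases). Matches of the last pair can overlap each other, and the paired sites had 0 matches in the 38 windows against 0.487% of all 32851 windows of that length.
Col9a2, chr4:121039316-121039615, plus strand: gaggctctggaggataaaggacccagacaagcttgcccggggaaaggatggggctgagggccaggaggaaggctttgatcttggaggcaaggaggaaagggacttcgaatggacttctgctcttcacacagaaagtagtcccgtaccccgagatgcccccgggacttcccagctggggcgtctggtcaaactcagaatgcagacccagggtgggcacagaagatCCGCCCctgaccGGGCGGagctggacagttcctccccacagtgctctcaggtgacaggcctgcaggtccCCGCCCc
Col9a1, upstream start, chr1:24177360-24177659, plus strand: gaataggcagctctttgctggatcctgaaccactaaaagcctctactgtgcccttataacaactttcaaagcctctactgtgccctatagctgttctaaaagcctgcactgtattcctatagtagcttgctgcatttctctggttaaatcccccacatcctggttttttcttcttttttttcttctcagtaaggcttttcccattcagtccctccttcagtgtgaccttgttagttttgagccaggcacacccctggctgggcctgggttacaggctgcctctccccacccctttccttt
Col9a1, downstream start, chr1:24194953-24195252, plus strand: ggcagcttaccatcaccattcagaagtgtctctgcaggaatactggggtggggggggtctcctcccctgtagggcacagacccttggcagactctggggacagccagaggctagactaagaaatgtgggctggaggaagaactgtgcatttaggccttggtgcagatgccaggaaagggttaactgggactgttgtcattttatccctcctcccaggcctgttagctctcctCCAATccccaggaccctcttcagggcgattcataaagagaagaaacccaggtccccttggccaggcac
Col1a2, chr6:4505368-4505667, plus strand: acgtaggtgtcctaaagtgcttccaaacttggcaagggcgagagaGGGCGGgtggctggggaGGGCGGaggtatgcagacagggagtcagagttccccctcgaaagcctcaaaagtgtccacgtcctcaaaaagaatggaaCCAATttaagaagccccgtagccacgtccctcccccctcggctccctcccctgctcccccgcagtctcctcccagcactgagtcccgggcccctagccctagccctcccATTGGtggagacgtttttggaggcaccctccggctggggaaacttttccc
Col3a1, chr1:45311288-45311587, plus strand: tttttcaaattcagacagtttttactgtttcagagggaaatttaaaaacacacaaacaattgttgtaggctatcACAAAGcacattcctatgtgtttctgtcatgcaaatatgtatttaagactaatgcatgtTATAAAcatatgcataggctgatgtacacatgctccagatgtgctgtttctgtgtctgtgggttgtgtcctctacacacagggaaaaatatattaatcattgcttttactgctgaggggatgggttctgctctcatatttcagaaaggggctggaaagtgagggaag
Col4a1, chr8:11312777-11313076, minus strand: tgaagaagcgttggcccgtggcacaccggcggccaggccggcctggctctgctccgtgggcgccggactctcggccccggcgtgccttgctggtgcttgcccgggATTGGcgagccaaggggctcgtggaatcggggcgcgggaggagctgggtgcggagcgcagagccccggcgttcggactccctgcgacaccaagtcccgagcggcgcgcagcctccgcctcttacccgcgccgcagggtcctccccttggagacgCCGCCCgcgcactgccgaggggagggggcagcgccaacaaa
Col4a2, chr8:11312555-11312854, plus strand: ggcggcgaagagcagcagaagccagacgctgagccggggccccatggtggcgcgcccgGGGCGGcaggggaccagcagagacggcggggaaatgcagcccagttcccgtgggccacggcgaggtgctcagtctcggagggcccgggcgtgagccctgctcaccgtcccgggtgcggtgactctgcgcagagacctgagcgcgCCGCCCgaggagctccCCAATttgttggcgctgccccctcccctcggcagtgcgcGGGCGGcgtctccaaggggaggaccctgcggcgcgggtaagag

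The type IX chains differed in these letters. The Col9a2 window held 3 GC boxes, beginning at positions -26, -14 and 44 from the start site. The upstream Col9a1 window held none of the 7 motifs, and the downstream one held 1 CCAAT box, beginning at -18. The Col1a2 window held a pair of GC boxes and a pair of CCAAT boxes, whereas that of Col3a1 held 1 TATA box at -117 and 1 ACAAAG at -176. Col4a1 and Col4a2 are read from opposite strands, their windows share 78 bases, and the start sites lie 21 bases apart. Each of these windows held a CCAAT box and at least 1 GC box. Over all collagen windows, the GC box was found in 60.5%, against 35.7% of all windows. The windows were not matched for GC content. The Col4a1 box at 10 and the Col4a2 box at 8 are the same bases, counted in both windows. The CCAAT box was found in 34.2% of collagen windows (37.4% of all), the TATA box in 13.2% (13.6%), TAATTA in 5.26% (5.29%), ACAAAG in 13.2% (18.7%) and ACAATG in 2.63% (12.6%). Such matches describe letters and are neither binding sites nor causes.

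**Figure D1:**
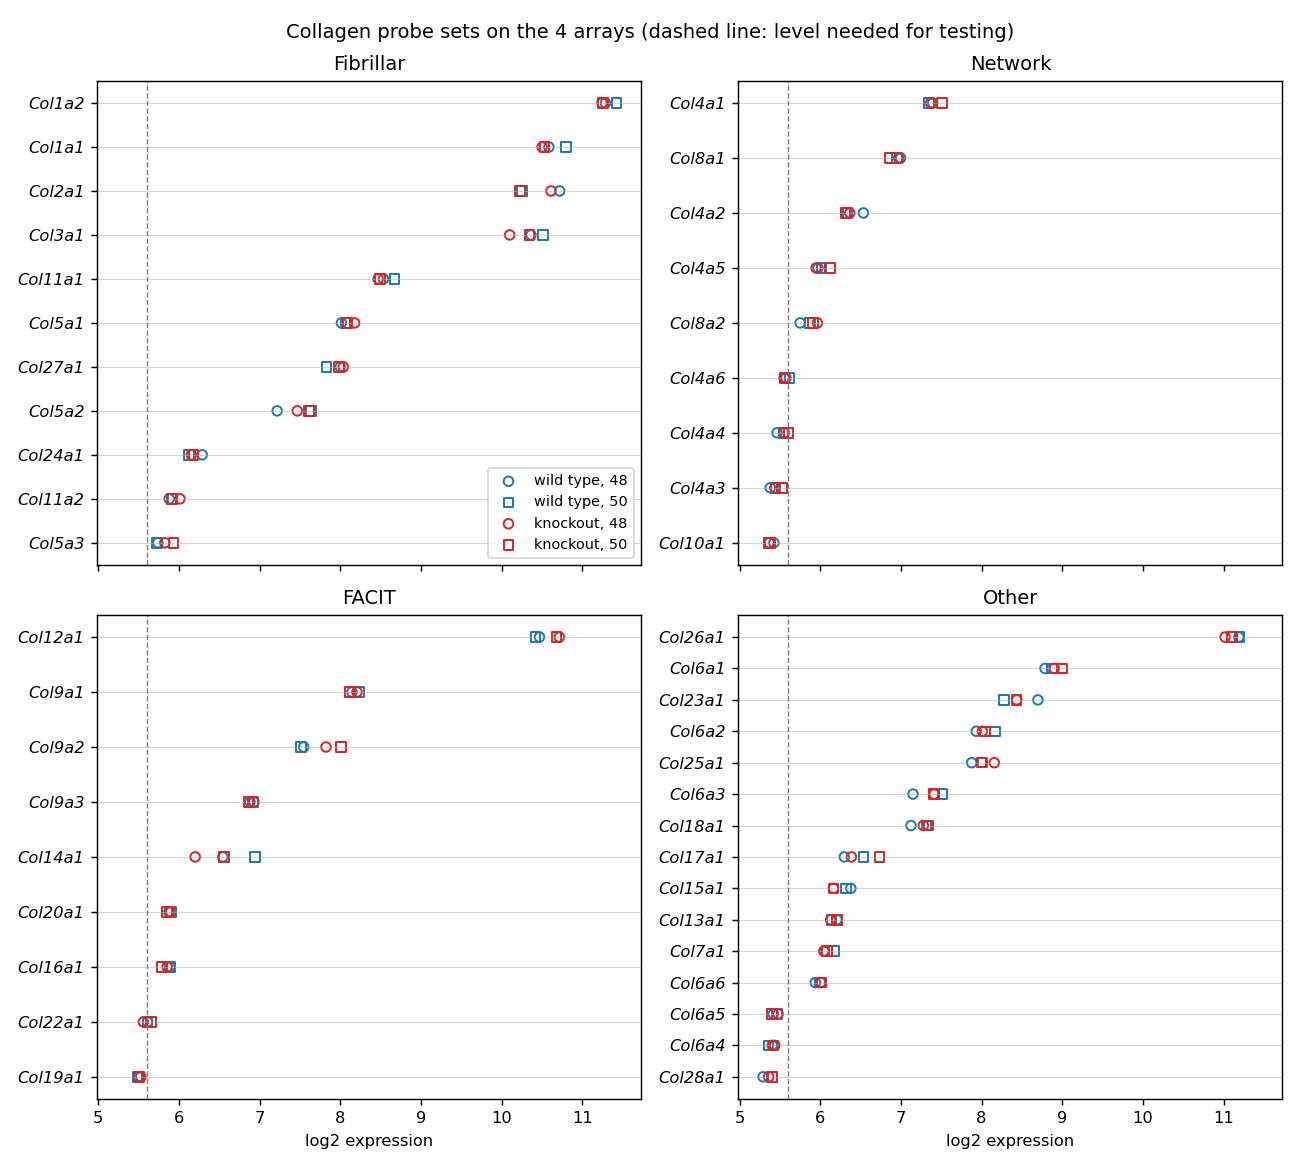
Log2 expression of the 44 collagen probe sets (horizontal axis) on each of the 4 arrays, in 4 panels by class; circles are arrays numbered 48, squares arrays numbered 50, blue wild type and red knockout, and the dashed line is the level of 5.60 needed for testing. For most genes the 4 symbols lie close together; Col9a2 and Col12a1 have their red symbols to the right of the blue ones, and Col2a1 and Col14a1 split by symbol shape.

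Levels are given for each probe set by itself. How brightly a probe set reads depends on its probes as well as on its transcript, so a percentile places a reading within its array and is no order of abundance between genes. In the wild type, 6 members read above percentile 93 of all probe sets. These were Col1a2 (97.8), Col26a1 (97.3), Col1a1 (94.9), Col2a1 (93.8), Col12a1 (93.6) and Col3a1 (93.5). Chains of the mesenchyme, of early cartilage and of the fibril surface were thus all among the bright readings at this stage. Every fibrillar gene passed the filter. The 8 dim members were Col4a3, Col4a4, Col4a6 and Col10a1 of the network class, Col19a1 of the FACIT class and Col6a4, Col6a5 and Col28a1 of the others. Col10a1, the marker of hypertrophic cartilage, read 5.43 and 5.38 in the wild type and 5.37 and 5.37 in the knockout, near the bottom of the array's range. The log2 differences of the dim members ran from -0.035 to 0.075.

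Type I collagen, the main fibril of mesenchyme and later of bone and tendon, is made of the products of Col1a1 and Col1a2. Col1a1 read 10.59 (48) and 10.80 (50) in the wild type and 10.50 (48) and 10.53 (50) in the knockout. The knockout arrays were below both wild-type arrays, with 0.055 between the nearest, and the wild-type array numbered 50 was the highest. The difference was -0.18 ± 0.097 (log2, SE, n = 2 arrays per genotype) and did not pass (limma, adjusted p = 0.591); it was -0.069 without wild-type array 50 and -0.28 without wild-type array 48. Col1a2 read 11.29 and 11.42 in the wild type and 11.24 and 11.25 in the knockout, again without overlap. Its difference of -0.11 ± 0.085 did not pass either (limma, adjusted p = 0.715), and the same omissions gave -0.038 and -0.17. Between the arrays numbered 48 the differences were -0.084 for Col1a1 and -0.043 for Col1a2, and between those numbered 50 they were -0.27 and -0.17.

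Type III collagen, which forms thin fibrils together with type I, is encoded by Col3a1 alone. Col3a1 read 10.36 and 10.52 in the wild type and 10.10 and 10.35 in the knockout. The groups did not overlap, but only 0.016 separated the nearest arrays. The difference of -0.22 ± 0.11 did not pass (limma, adjusted p = 0.566), and it ran from -0.092 without knockout array 48 to -0.34 without knockout array 50. Col11a1, which encodes a chain of the thin cartilage fibril, had the same order, at 8.54 and 8.67 in the wild type against 8.47 and 8.49 in the knockout (difference -0.12 ± 0.086, but -0.055 without wild-type array 50 and -0.19 without wild-type array 48). In all, 4 fibrillar genes were lower without overlap, and the 2 that were higher without overlap were type V chains. Type V collagen starts and thins the type I fibril. Col5a3 read 5.74 and 5.73 in the wild type and 5.82 and 5.93 in the knockout (0.15 ± 0.082, but 0.093 without knockout array 50), and Col5a1 had a difference of 0.095 ± 0.081, which was 0.053 without knockout array 48. The 6 of 11 fibrillar genes without overlap, 54.5%, stand against 42% of all genes, and the median of the class was -0.040. That median had no stable sign: it was 0.042 without wild-type array 48 and 0.041 without knockout array 50, and with only genes at or above percentile 60 it was -0.085.

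Values of Col2a1, which encodes type II collagen, the main fibril of cartilage, split by array number. Col2a1 read 10.72 on wild-type array 48 and 10.25 on wild-type array 50. In the knockout it read 10.61 on array 48 and 10.23 on array 50. Both arrays numbered 48 were thus above both arrays numbered 50, and the genotypes overlapped. The genotype difference was -0.063 ± 0.18 (limma, adjusted p = 0.933), whereas array 50 minus array 48 gave -0.47 in the wild type and -0.38 in the knockout. Sox9, the transcription factor that drives Col2a1 in cartilage, read 11.31 (48) and 10.98 (50) in the wild type. In the knockout Sox9 read 11.33 (48) and 11.09 (50), a difference of 0.065 between the genotypes. For Sox9, array 50 minus array 48 gave -0.33 in the wild type and -0.24 in the knockout. The part of Sox9 in the Col2a1 values was not tested. The remaining fibrillar genes, Col27a1, Col5a2, Col24a1 and Col11a2, had differences from -0.040 to 0.11 with overlapping genotypes. Without wild-type array 48 that of Col5a2 turned from 0.11 to -0.097 and that of Col24a1 from -0.040 to 0.042. Leaving out 1 array turned the sign of Col2a1, to 0.17 without wild-type array 48 and 0.13 without knockout array 50.

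Col9a2 had the largest difference of the family. It encodes 1 of the 3 chains of type IX collagen, the FACIT molecule that coats the cartilage fibril. Col9a2 read 7.55 (48) and 7.51 (50) in the wild type and 7.82 (48) and 8.01 (50) in the knockout. Both knockout arrays were above both wild-type arrays, and the gap between the nearest arrays was wider than the spread within either genotype. The difference was 0.39 ± 0.092 (log2, SE, n = 2 arrays per genotype), or 1.31-fold, with an unadjusted p of 0.00467 in limma; with adjustment over all genes it did not pass (limma, adjusted p = 0.322). The 48 arrays alone gave 0.28 and the 50 arrays alone gave 0.50. With each array left out in turn it ran from 0.29 to 0.48.

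The partner chains of type IX had smaller differences. Col9a1 read 8.14 and 8.24 in the wild type and 8.21 and 8.11 in the knockout, so the genotypes overlapped (difference -0.031 ± 0.085; limma, adjusted p = 0.929). Col9a3 read 6.88 and 6.92 in the wild type and 6.93 and 6.86 in the knockout (difference -0.0045 ± 0.080; limma, adjusted p = 0.992). On the log2 scale the ratio of Col9a2 to Col9a1 was -0.60 and -0.73 on the wild-type arrays and -0.38 and -0.11 on the knockout arrays. The ratio of Col9a2 to Col9a3 was 0.67 and 0.59 in the wild type and 0.89 and 1.14 in the knockout. Neither ratio overlapped between the genotypes, and both contain the Col9a2 reading given above. Lack of overlap was also found for Col1a1 to Col1a2, Col11a1 to Col11a2, Col8a1 to Col8a2, Col6a1 to Col6a2 and Col6a2 to Col6a3. Several of these ratios share a reading. Single genes did not overlap in 42% of all genes tested, and no such share was counted for ratios of other gene pairs. The ratios of Col5a1 to Col5a2, Col4a1 to Col4a2 and Col6a1 to Col6a3 overlapped. The ratio of Col9a1 to Col9a3 did overlap, at 1.26 and 1.32 in the wild type and 1.28 and 1.25 in the knockout. Such ratios compare readings within an array and were not tested. They have no scale of their own, because each probe set has its own brightness.

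Cartilage markers outside the family were mostly lower in the knockout where they were tested. Of 9 listed, 6 were tested, with a median of -0.26, and none passed (limma, smallest adjusted p = 0.395). Lower values in the knockout were read for 5 of them, and Sox9 was the exception, at 0.065 with overlapping genotypes. In 4 of the 6 the genotypes did not overlap, each lower in the knockout, against 19.9% of all genes in that direction. Matn1, a cartilage matrix protein gene, read 5.71 and 5.81 in the wild type and 5.41 and 5.53 in the knockout. Its mean of 5.61 was just above the filter level of 5.60, which only its wild-type arrays reached. Matn1 is among the 4 markers without overlap and was tested only through its higher wild-type readings. The counts and the median above include it, so setting them against all genes gives no support. Matn1 differed by -0.29 and the link protein gene Hapln1 by -0.27 (limma, adjusted p = 0.395 and 0.446). The summed level of the 9 markers was 11.41 to 11.64 (log2) in the wild type and 11.44 to 11.62 in the knockout. Sox9, at a mean of 11.2, made up most of this sum, so the sum says little of the other markers. Matn3, Comp and Snorc, which were below the filter, differed by 0.067, 0.039 and 0.024. The part of cartilage cell number in the collagen values was not tested. In pooled tissue, fewer cells of a type and less RNA per cell cannot be told apart.

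**Figure D2:**
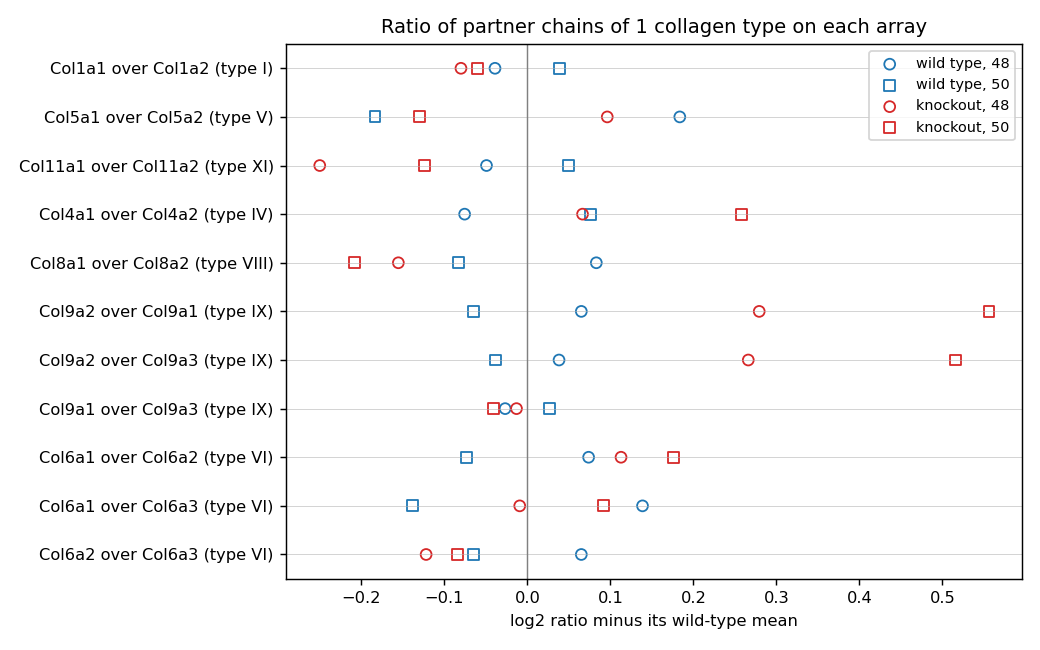
Log2 ratio of partner chains of the same collagen type on each array, minus the mean of that ratio in the wild type (horizontal axis); circles are arrays numbered 48, squares arrays numbered 50, blue wild type and red knockout. The ratios of Col9a2 to Col9a1 and to Col9a3 have both knockout symbols to the right of the wild-type ones, and the ratio of Col9a1 to Col9a3 stays near 0.

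Col12a1 was the other FACIT gene with a low unadjusted p. It encodes type XII collagen, which binds type I fibrils in dense connective tissue. Col12a1 read 10.47 (48) and 10.42 (50) in the wild type and 10.71 (48) and 10.68 (50) in the knockout. The knockout arrays were both higher, and replicates lay within 0.049 of each other in either genotype. The difference was 0.25 ± 0.079, or 1.19-fold, with an unadjusted p of 0.0162 in limma; with adjustment over all genes it did not pass (limma, adjusted p = 0.403). The 48 arrays alone gave 0.25 and the 50 arrays alone gave 0.26; the difference was 0.23 to 0.28 with each array left out.

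Col14a1 encodes type XIV collagen, the closest relative of type XII, which limits fibril growth. It had the most negative difference of the family. Col14a1 read 6.54 (48) and 6.95 (50) in the wild type and 6.20 (48) and 6.56 (50) in the knockout. Within each number the knockout was lower, with differences of -0.34 (48) and -0.38 (50), but the genotypes overlapped. In either genotype the array numbered 50 read higher. The difference of -0.36 ± 0.17 did not pass (limma, adjusted p = 0.522). It was -0.16 without wild-type array 50, -0.18 without knockout array 48, -0.54 without knockout array 50 and -0.56 without wild-type array 48. The log2 ratio of Col12a1 to Col14a1 was 3.93 and 3.47 in the wild type and 4.51 and 4.12 in the knockout, without overlap. This ratio restates the readings of both genes given above and adds no separate evidence. The genes encode separate molecules rather than chains of the same collagen type. Col16a1, Col20a1 and Col22a1, the other FACIT genes tested, had differences from -0.066 to -0.0065. The class had a median of -0.010 over 8 tested genes, 2 higher and 6 lower, and the median was 0.012 without knockout array 50 and 0.0082 without wild-type array 50.

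Tendon and connective tissue markers differed in both directions in the same pools. All 6 tested of 8 listed had genotypes that did not overlap, as did 42% of all genes. Of the 6, 3 were higher and 3 lower in the knockout. Kera and Osr2 were higher by 0.88 and 0.90, Mkx was higher by 0.47 and Postn differed by -0.37, each at an adjusted p of 0.322 in limma. The remaining members, Osr1 and Scx, differed by -0.16 and -0.11. The summed level of the list was 13.46 to 13.48 (log2) in the wild type and 13.39 to 13.50 in the knockout. Osr1, at a mean of 12.8, made up most of this sum. The tenocyte marker Tnmd was below the filter. The part of these markers in the Col12a1 and Col14a1 values was not tested.

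**Figure D3:**
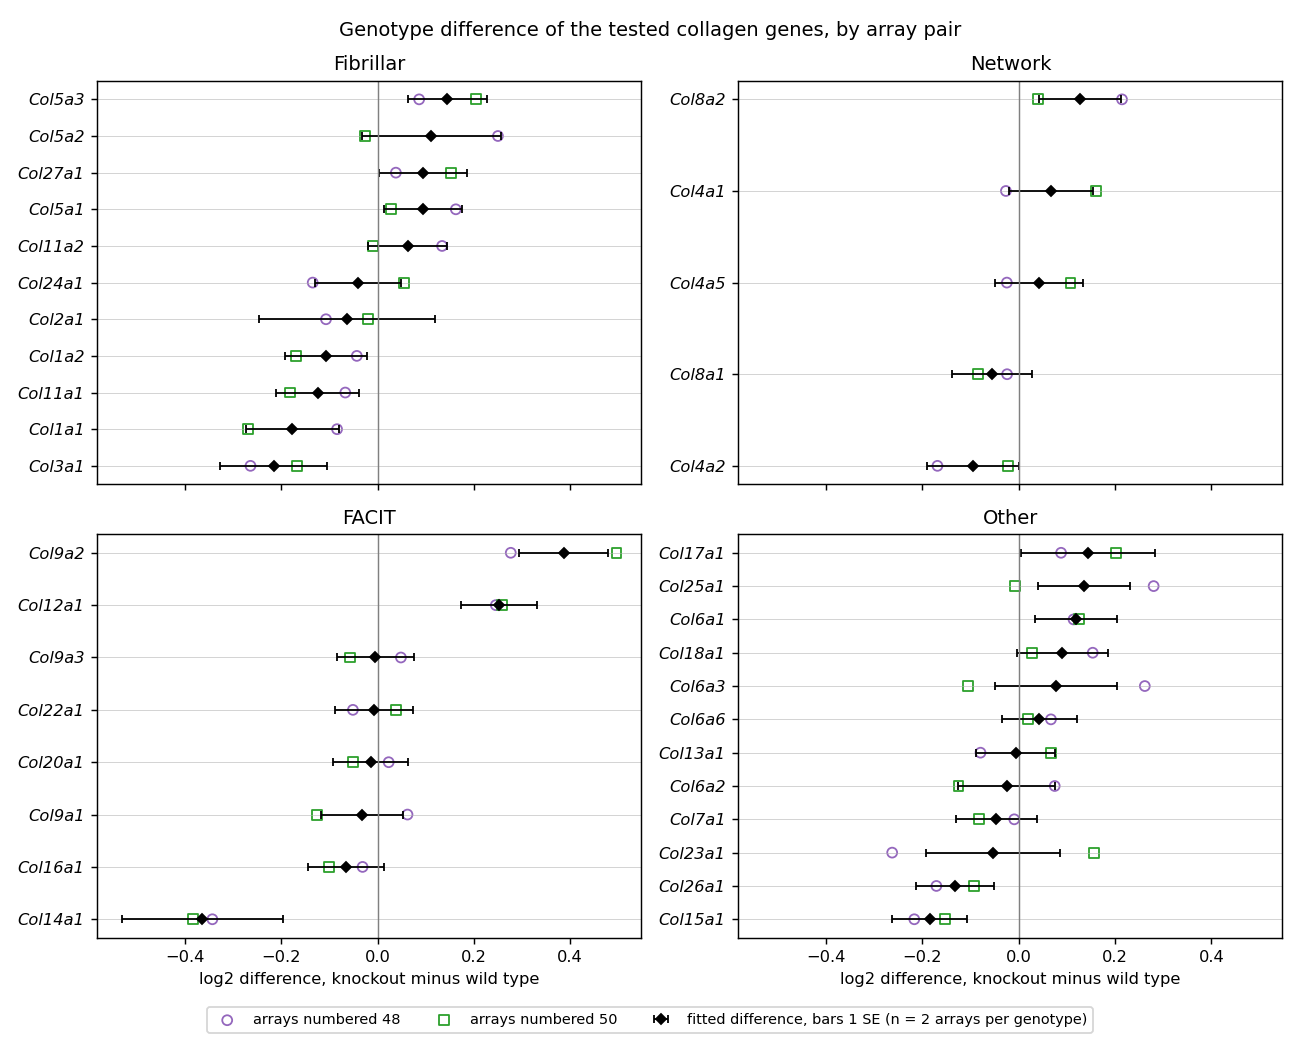
Log2 difference between knockout and wild type (horizontal axis) for the 36 tested collagen genes, in 4 panels by class; black diamonds are the fitted differences with bars of 1 SE (n = 2 arrays per genotype), circles the difference between the arrays numbered 48 and squares that between the arrays numbered 50. The differences run from -0.36 (Col14a1) to 0.39 (Col9a2), and many members have symbols on either side of 0.

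Network collagens that were tested had differences from -0.096 to 0.13. Type IV collagen of the basement membrane is built mostly from Col4a1 and Col4a2, which share their start region. Col4a1 read 7.40 and 7.35 in the wild type and 7.37 and 7.51 in the knockout (difference 0.067 ± 0.087). Col4a2 read 6.54 and 6.34 in the wild type and 6.37 and 6.31 in the knockout (difference -0.096 ± 0.095). In both genes the genotypes overlapped, and the ratio of Col4a1 to Col4a2 overlapped too. Without knockout array 50 the Col4a1 difference was -0.0027, and without wild-type array 48 that of Col4a2 was 0.0040. Col4a5, one of the 2 members on the X chromosome, read 5.97 and 6.01 in the wild type and 5.95 and 6.12 in the knockout (difference 0.041 ± 0.091, or -0.046 without knockout array 50), in pools that differed in Xist and the Y-linked genes. Of the type VIII chains, which form hexagonal sheets, Col8a2 read 5.75 and 5.87 in the wild type and 5.97 and 5.91 in the knockout, without overlap. Its difference was 0.13 ± 0.085 (limma, adjusted p = 0.652; 0.067 without wild-type array 48), and Col8a1 differed by -0.055 ± 0.083. The class had a median of 0.041 over 5 tested genes, which was 0.10 without knockout array 48 and -0.0027 without knockout array 50. Of the 5, 1 did not overlap, against 42% of all genes.

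Among the other collagens, type VI forms beaded filaments around cells. Col6a1 read 8.79 and 8.88 in the wild type and 8.90 and 9.0 in the knockout, with 0.026 between the nearest arrays. Its difference of 0.12 ± 0.085 did not pass (limma, adjusted p = 0.675) and was 0.070 without knockout array 50. The partner chains Col6a2 and Col6a3 had overlapping genotypes, with differences of -0.025 and 0.078. Col6a3 read lowest on wild-type array 48, at 7.15, and between 7.41 and 7.52 on the other arrays. Without that array the Col6a3 difference was -0.10, and without wild-type array 50 that of Col6a2 was 0.093.

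Col15a1 encodes a multiplexin, a collagen of the zone beneath basement membranes of vessels and muscle. It read 6.38 and 6.32 in the wild type and 6.16 and 6.17 in the knockout. The knockout arrays nearly coincided, and both were lower than either wild-type array. The difference of -0.19 ± 0.079 had an unadjusted p of 0.0526 (limma, adjusted p = 0.499). Col18a1, the related multiplexin of ectodermal and vascular basement membrane, differed by 0.090 ± 0.095 with overlap, and by -0.0048 without wild-type array 48. In the same arrays all 9 endothelial markers had lower values in the knockout, with a median of -0.25, and 4 had an unadjusted p under 0.05, against 5% of all genes in that direction. Their summed level was 12.42 to 12.44 (log2) in the wild type and 12.22 to 12.30 in the knockout, and 0 of the 9 were below the filter. The part of endothelial cell number in the Col15a1 value was not tested.

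The membrane-spanning collagens showed no shared direction. Col17a1, which anchors basal ectoderm to its basement membrane, read 6.30 and 6.53 in the wild type and 6.39 and 6.74 in the knockout. Both arrays numbered 50 were above both numbered 48, and the difference of 0.14 ± 0.14 did not pass (limma, adjusted p = 0.773) and was -0.030 without knockout array 50. Of 10 ectodermal markers, 8 were higher in the knockout and 2 lower, with a median of 0.093. Krt8 differed by 0.30 and Krt18 by -0.29. Of the 10 markers, 5 had the same sign in the 48 arrays as in the 50 arrays, against 63.1% of all genes. Their summed level was 10.75 to 10.90 (log2) in the wild type and 10.90 to 11.02 in the knockout, and 0 were below the filter. Their part in the Col17a1 value was not tested. Col23a1 read 8.70 and 8.28 in the wild type and 8.44 and 8.43 in the knockout, so that its knockout arrays lay between the wild-type ones; without wild-type array 48 the difference was 0.16 in place of -0.053. Col25a1, which is needed by motor axons in developing muscle, read 7.88 and 8.01 in the wild type and 8.16 and 8.0 in the knockout (0.14 ± 0.095, but 0.058 without knockout array 48 and 0.21 without knockout array 50). Col13a1, a collagen of the neuromuscular junction, differed by -0.0065 ± 0.082. Col26a1 read 11.19 and 11.20 in the wild type and 11.02 and 11.11 in the knockout. Its groups did not overlap, and the difference of -0.13 ± 0.080 did not pass (limma, adjusted p = 0.624). Col7a1, the anchoring fibril of skin, differed by -0.046, and Col6a6, a further type VI chain, by 0.043. The class had a median of 0.018 over 12 tested genes, 6 higher and 6 lower, and the median was 0.082 without wild-type array 50 and -0.036 without knockout array 50.

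Collagen genes differed more between the arrays numbered 50 and 48 than between the genotypes about as often as other genes did, in 36.1% against 37%. The labels do not say what the number marks. Of the 36 tested members, 21 had the same sign of array 50 minus array 48 in both genotypes, 15 higher and 6 lower on array 50. In 13 of them the mean of this difference was larger in size than the genotype difference. Col2a1 had the largest mean, -0.43, against a genotype difference of -0.063. Col5a2, a type V chain, differed by 0.42 in the wild type and 0.14 in the knockout, and Col17a1 by 0.24 and 0.35. Col14a1 differed by 0.40 in the wild type and 0.36 in the knockout, about as much as between the genotypes. Col9a2 (-0.036 and 0.18) and Col12a1 (-0.049 and -0.037) showed less of it than of the genotype difference. These are differences between 1 array and another, without a test.

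**Figure D4:**
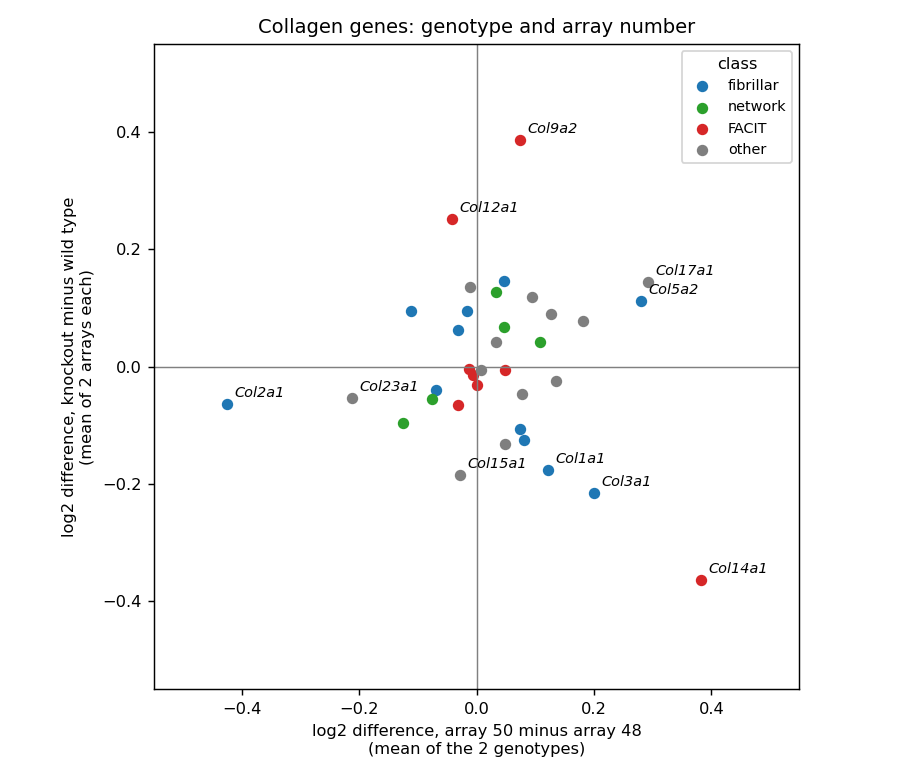
Mean log2 difference of array 50 minus array 48 over the genotypes (horizontal axis) against the log2 difference of knockout minus wild type (vertical axis) for the 36 tested collagen genes, coloured by class. Col9a2 and Col12a1 lie high near the vertical zero line, Col2a1 lies far to the left near the horizontal zero line, and Col14a1 lies to the lower right.

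The family also has neighbours on a chromosome. In RefSeq, 8 pairs of measured collagen genes are direct neighbours among protein-coding genes, and in 3 of these both were tested. In each of the 3 the fitted differences had opposite signs. They were -0.22 and 0.11 for Col3a1 and Col5a2 on chromosome 1, -0.025 and 0.12 for Col6a2 and Col6a1 on chromosome 10, and 0.067 and -0.096 for Col4a1 and Col4a2 on chromosome 8. None of these 6 values passed in limma, where 0 had an unadjusted p under 0.05, and in each pair leaving out 1 array turned the sign of a member. Of the 36 tested members, 22 had the same sign of difference in the 48 arrays as in the 50 arrays, or 61.1%, against 63.1% of all genes.

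The genes that make, process and bind collagen held 0 genes past the adjusted threshold in limma. Among 23 tested genes for folding and modification, which hydroxylate and chaperone the chains in the secretory pathway, 10 were higher and 13 lower, with a median of -0.025. Fkbp14, a chaperone isomerase gene, differed by -0.24 ± 0.087, and P3h2, a prolyl 3-hydroxylase gene active on basement membrane collagen, by -0.21 ± 0.085 (limma, adjusted p = 0.437 and 0.468). The collagen chaperone gene Serpinh1 differed by 0.042. Among 16 tested genes of procollagen processing and crosslinking, 10 were higher and 6 lower, with a median of 0.037. None had an unadjusted p under 0.05 and none passed (limma, smallest adjusted p = 0.574), and the crosslinking enzyme gene Lox differed by -0.013. Of 10 tested genes of degradation, 3 were higher and 7 lower (median -0.064). The collagenase inhibitor genes Timp1 and Timp3 differed by -0.33 ± 0.089 and -0.19 ± 0.078 (limma, adjusted p = 0.359 and 0.475).

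Collagen receptors and basement membrane partners included members with lower values in the knockout, none of which passed. Adgrg6, an adhesion receptor that binds type IV collagen, read 7.30 and 7.20 in the wild type and 6.72 and 6.92 in the knockout. Both knockout arrays were lower, and the difference was -0.43 ± 0.10 with an unadjusted p of 0.00411 (limma, adjusted p = 0.322). Itga1, the integrin chain of a type IV collagen receptor, differed by -0.34 ± 0.12 (limma, adjusted p = 0.428), while the fibrillar collagen receptor gene Ddr2 differed by 0.037. In all, 6 of the 11 tested receptor genes were higher and 5 lower, with a median of 0.037. Among 16 tested partners of type IV collagen in the basement membrane, 5 were higher and 11 lower (median -0.022). The laminin chain genes Lamc1 and Lama4 differed by -0.28 ± 0.086 and -0.23 ± 0.081 (limma, adjusted p = 0.399 and 0.437). These values stood beside the lower endothelial markers, whose part in them was not tested. Of 9 tested transcription regulators of collagen genes, 5 were higher and 4 lower (median 0.061). Lmx1b, a dorsal limb factor that acts on type IV collagen genes in kidney, differed by 0.37 ± 0.081, and Trps1, a zinc finger repressor of skeletal tissue, by 0.23 ± 0.080 (limma, adjusted p = 0.322 and 0.427). Of the remaining marker lists, limb mesenchyme had 8 of 9 genes higher (median 0.18), distal limb 6 of 6 (0.74), muscle 6 of 11 (0.070), macrophage 4 of 7 (0.041), nerve and Schwann cell 4 of 6 (0.045) and erythroid 1 of 6 (-0.20). Their part in the collagen values was not tested.

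**Figure D5:**
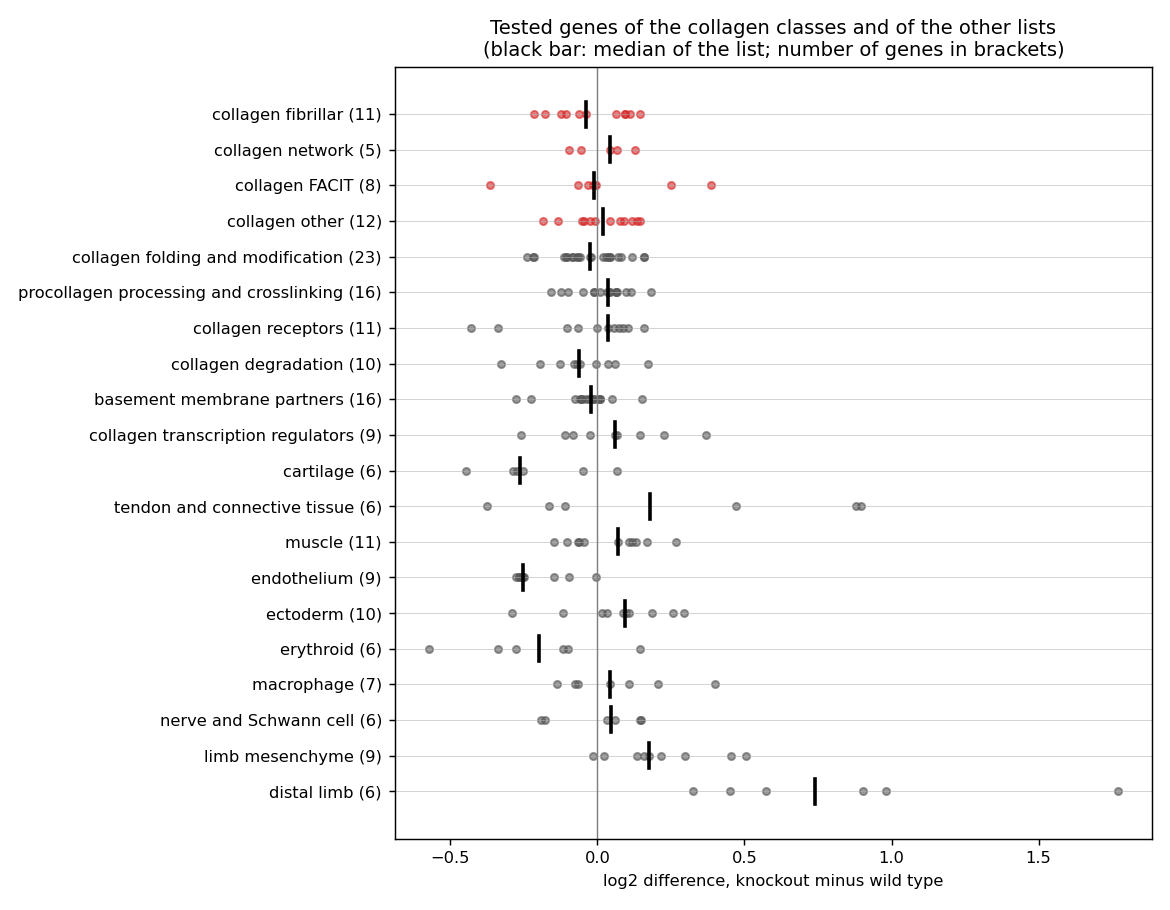
Log2 difference between knockout and wild type (horizontal axis) for every tested gene of the 4 collagen classes (red) and of the other lists (grey), with the number of genes in brackets and a black bar at each list's median. The collagen classes have medians between -0.040 and 0.041, while the distal limb list has a median of 0.74 and the endothelial and cartilage lists medians of -0.25 and -0.26.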

How the data were processed

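RNA from pooled forelimbs was measured on 4 arrays, 2 per genotype. Groups and array numbers were taken from the sample titles. The authors deposited 1 table of log2 values per probe set, which came quantile-normalized: per the values, the sorted columns differ by at most 0.00171. Per the labels' protocols, RNA was extracted with TRIzol and biotinylated cRNA was made. The sources used here name no array software. No normalization was added to the deposited log2 values. Quantile normalization hides a shift shared by most genes.

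An annotation named 23185 probe sets. Named genes with a mean at or above percentile 40 were tested with limma 3.58.1 (lmFit and eBayes, R 4.3.3), two-sided, with no covariate, and adjusted by Benjamini-Hochberg over 14095 genes at a threshold of 0.05. The SE is that of the moderated fit, which has 2 residual degrees of freedom before moderation. P-values measure only the spread between pools, that of the gene itself and, through the moderation, that of all genes tested. The script was tested on simulated data. Members, gene lists and the rule for members given in full (unadjusted p under 0.05, or the 3 largest differences or the 3 highest levels of a class) were chosen with earlier results of these data known. For other lists, genes with the smallest p were named, besides well-known members (Serpinh1, Lox, Ddr2, Sox9) named after their values were seen. Alternatives covered the filter, scaling, variance model, unnamed probe sets, a block for the array number and each array left out. Motifs were searched by exact match. Figures were made in Python 3.11.15 (matplotlib 3.10.9).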

Additional observations from a re-analysis of the deposited data

How the results depend on the processing

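Of 12 alternatives, 11 called 0 collagen genes (limma, smallest adjusted p from 0.300 to 0.746). The exception was the replicate block, a fit that takes the array number as a block. It called 203 genes higher and 179 lower over all genes and 2 collagen genes, Col9a2 (0.39, limma, adjusted p = 0.0442) and Col14a1 (-0.36, limma, adjusted p = 0.0391). It counted 3 collagen genes lower at an unadjusted p under 0.05, Col14a1, Col3a1 and Col15a1, or 8.33% of members against 9.49% of all genes in that fit. The 2 higher, Col9a2 and Col12a1, were 5.56% against 9.07%. The deviations of same-numbered arrays from their group means correlated at 0.388 across genes. The labels state no pairing and there are 2 pairs, so the arrays were taken to share only a number.

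Without the filter on dim probe sets 2 of 44 members, Col15a1 and Col26a1, were lower at an unadjusted p under 0.05, 4.55% against 4.55% of all genes. There 3 were higher, Col9a2, Col12a1 and Col5a3, 6.82% against 4.96%. With an intensity trend 1 gene, Xist, was called lower over all genes. With 1 array left out, 3 to 4 genes were called higher and 1 lower over all genes, and the median of the family ran from -0.0020 to 0.013. Then 1 to 2 members were higher and 0 to 2 lower at an unadjusted p under 0.05, where all genes had 2.53% to 5.2% higher and 3.45% to 5.12% lower. Col9a2 was among them in each of these 4 fits, and Col12a1 only without wild-type array 48 or knockout array 50.

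Leaving out an array turned the sign of 17 of the 36 tested members, 47.2%, against 44.3% of all genes; the other alternatives turned 0. The ranges over the 4 omissions were, for the fibrillar class, -0.30 to 0.17 for Col2a1, -0.097 to 0.32 for Col5a2 and -0.12 to 0.042 for Col24a1. In the network class they were -0.0027 to 0.14 for Col4a1, -0.20 to 0.0040 for Col4a2 and -0.046 to 0.13 for Col4a5. Among FACIT genes they were -0.078 to 0.016 for Col9a1, -0.038 to 0.029 for Col9a3, -0.037 to 0.0081 for Col20a1 and -0.052 to 0.040 for Col22a1. Among the others they were -0.14 to 0.093 for Col6a2, -0.10 to 0.26 for Col6a3, -0.10 to 0.010 for Col7a1, -0.046 to 0.033 for Col13a1, -0.030 to 0.32 for Col17a1, -0.0048 to 0.19 for Col18a1 and -0.26 to 0.16 for Col23a1. The cause was not tested. The number of arrays limits all of these values.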
